A study of Homo sapiens with 12 samples.

Results

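SKP2 is the F-box protein that gives an SCF ubiquitin ligase its substrates, and SKP2 transcripts were upregulated by L-arginine (Arg) in oral keratinocytes at 24 h. The 10 genes described here are *SKP2*, *SKP1*, *CUL1*, *RBX1*, *CKS1B*, *CKS2*, *FBXW7*, *BTRC*, *FBXO5*, and *CCNF*, chosen by gene name out of 58735 genes in the count table. All 10 were found and all 10 passed the filter on low counts, with at least 365 counts in each library. The cells were TIGK, a gingival keratinocyte line that carries transfected hTERT, so all values come from 1 line. All 4 groups, of 3 libraries each, were grown at 48 mM glucose, without Arg for 24 h (control at 24 h) or 48 h (control at 48 h), or with 500 μM Arg for 24 h or 48 h. RNA was sequenced in bulk, and no label says that the 3 libraries of a group were separate cultures, so the p-values measure only the spread between these libraries. The groups at the 2 times share no library, but comparisons that use the same group do, and their values are given side by side without further testing.

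An SCF ligase is built on the scaffold CUL1, whose one end holds the RING protein RBX1, which recruits the ubiquitin-conjugating enzyme, and whose other end holds the adaptor SKP1. SKP1 binds interchangeable F-box proteins, each of which selects its own substrates. SKP2, with its cofactor CKS1B, directs degradation of the CDK inhibitor p27, which is encoded by *CDKN1B*, and is known for promoting entry into S phase. FBXW7 selects proteins such as cyclin E and JUN, and BTRC selects β-catenin and the NF-κB inhibitor encoded by *NFKBIA*. FBXO5 is known chiefly as an inhibitor of the anaphase-promoting complex, and CCNF encodes cyclin F, an F-box protein of S and G2 phase.

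The libraries held between 16542243 and 19040964 counts. Keratinocyte markers were high in every group, with a summed level over 10 genes between 43228 and 55269 CPM, the counts of a gene scaled to a common library size. The summed level of 7 fibroblast markers was 30.2 to 54.4 CPM at 24 h and 72.7 to 102.5 CPM at 48 h. Most of it came from *DCN* and *COL1A1*, with 9738 and 3957 counts over 12 libraries, before *LUM* with 281. Both were higher at 48 h than at 24 h in control and with Arg (edgeR adjusted p under 0.05). *DCN* was also lower with Arg at 24 h by that threshold. *COL1A2* was at 0 in both groups at 24 h. The part of the fibroblast markers in the results was not tested. The sums of the 5 melanocyte, 4 endothelial, and 7 immune markers stayed at or below 20.6 CPM in every library.

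A single library stood apart from its label. Over all genes tested at 48 h, the library labelled control replicate B differed from control replicates A and C by root mean squares of 0.485 and 0.503 on the log2 CPM scale, but from the 3 Arg libraries by only 0.399 to 0.446. Of 947 genes called in Arg against control at 24 h, 933 were also tested at 48 h, and 759 of these, or 81.4%, were shifted in this library in the direction of Arg relative to control replicates A and C. The same share in the 3 Arg libraries at 48 h was between 84.6% and 91.5%. *CYP1A1*, a gene chosen here after its values were seen, went the other way, with 20.3 CPM in this library against 19.7 and 20.7 CPM in the other controls and 26.6 to 40.8 CPM with Arg. This library also had the highest share of mitochondrially encoded counts, 1.55%, against 0.624% to 1.31% in the others. The comparisons with the controls at 48 h are therefore given with and without it. For genes in which it lay on the Arg side of the other controls, leaving it out widens the difference from Arg by construction. For genes in which it lay on the far side, such as *RBX1*, the difference narrows. It was left out after its values were seen, so those values are a description of its weight.

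In the genome build of the count table, GRCh38, *SKP2* (ENSG00000145604) lies on the plus strand at chr5:36151989-36184319. *SKP1* (ENSG00000113558) lies at chr5:134148935-134177038 on the minus strand, *CUL1* (ENSG00000055130) at chr7:148697914-148801036 on the plus strand, and *RBX1* (ENSG00000100387) at chr22:40951347-40973309 on the plus strand. *CKS1B* (ENSG00000173207) lies at chr1:154974653-154979249 and *CKS2* (ENSG00000123975) at chr9:89311198-89316703, both on the plus strand. *FBXW7* (ENSG00000109670) lies at chr4:152320544-152536063 on the minus strand, *BTRC* (ENSG00000166167) at chr10:101354033-101557321 on the plus strand, *FBXO5* (ENSG00000112029) at chr6:152970519-152983579 on the minus strand, and *CCNF* (ENSG00000162063) at chr16:2429394-2458854 on the plus strand. Values are counts over all exons of a gene, and strand-specific counting is not stated. Antisense and overlapping genes held few counts. The largest were *TCF7* at *SKP1*, with 717 counts over 12 libraries against 59759, and AC005229.4 at *CUL1*, with 675 against 21220. Processed copies of *CKS1B* share sequence with it, and the most counted of them, CKS1BP3, held 296 counts against 41115.

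The sequences before the start sites of the members differ, and they are shown because 4 members share a pair of motifs. RefSeq (GRCh38.p14) gave 17 windows of 250 bases before a start for 9 of the 10 genes. With the members' values known, 12 motifs were searched on both strands. They were the NF-Y box CCAAT, the cell cycle homology element TTTGAA and its variant TTCGAA, 4 forms of the E2F site (TTTGGCGC, TTTCGCGC, TTTCCCGC, and TTTGCCGC), the ETS site CCGGAAGT, the CRE TGACGTCA, the NRF1 palindrome, the SP1 site GGGCGG, and the E-box CACGTG. No form of the E2F site and no ETS, CRE, or NRF1 site was found in the 17 windows, while 2.79%, 3.42%, 1.65%, and 1.03% of all 35116 windows held one. GGGCGG was found in 11 of 17 windows, or 64.7%, those of *SKP2*, *SKP1*, and *RBX1* included, in 42.6% of all windows, and in 63.6% of the windows of genes tested at 24 h. CACGTG was found in the *RBX1* window alone and in 6.34% of all windows, and TTCGAA in a window of *CUL1* and that of *CCNF* and in 1.19% of all windows. CCAAT was found in 6 of 17 windows against 32.0% of all, and TTTGAA in 5 of 17 against 13.3% of all. Among windows of genes tested at 24 h these shares were 32.7% and 8.93%. TTTGAA together with 2 or more CCAAT, a combination picked from these matches, occurred in *CKS1B*, *CKS2*, *CCNF*, and 1 of the 2 *FBXO5* windows, in 1.34% of all windows, and in 1.14% of the 15054 windows of genes tested at 24 h. Since it was picked out of 12 motifs after the matches were seen, its presence in 4 members is a description and was not tested. The TTTGAA lay 30 bases before the start in *CKS1B*, 29 in *CKS2*, 40 in *FBXO5*, and 85 in *CCNF*. The 4 windows and the *SKP2* window are shown 5′ to 3′ on the gene's strand, with CCAAT and TTTGAA, or their reverse complements, in capitals, and shortened where over 30 bases lie in an exon of GENCODE v44.
SKP2, chr5:36151888-36151988, plus strand: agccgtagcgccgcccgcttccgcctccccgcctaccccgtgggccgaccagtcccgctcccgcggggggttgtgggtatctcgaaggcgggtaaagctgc
CKS1B, chr1:154974431-154974680, plus strand: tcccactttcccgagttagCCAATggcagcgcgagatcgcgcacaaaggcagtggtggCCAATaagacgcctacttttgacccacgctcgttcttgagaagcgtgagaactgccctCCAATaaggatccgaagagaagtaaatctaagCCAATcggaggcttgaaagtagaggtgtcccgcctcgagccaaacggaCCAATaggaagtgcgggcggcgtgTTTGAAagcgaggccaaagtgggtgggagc
CKS2, chr9:89310945-89311194, plus strand: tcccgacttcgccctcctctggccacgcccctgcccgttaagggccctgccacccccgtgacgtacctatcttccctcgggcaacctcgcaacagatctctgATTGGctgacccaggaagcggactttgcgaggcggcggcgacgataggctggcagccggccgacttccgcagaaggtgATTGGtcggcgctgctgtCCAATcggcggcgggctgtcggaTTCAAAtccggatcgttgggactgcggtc
FBXO5, chr6:152983042-152983233, minus strand: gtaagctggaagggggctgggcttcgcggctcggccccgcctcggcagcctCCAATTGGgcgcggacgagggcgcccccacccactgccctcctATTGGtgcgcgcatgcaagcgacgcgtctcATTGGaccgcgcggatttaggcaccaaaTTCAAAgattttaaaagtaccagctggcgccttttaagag
CCNF, chr16:2429197-2429393, plus strand: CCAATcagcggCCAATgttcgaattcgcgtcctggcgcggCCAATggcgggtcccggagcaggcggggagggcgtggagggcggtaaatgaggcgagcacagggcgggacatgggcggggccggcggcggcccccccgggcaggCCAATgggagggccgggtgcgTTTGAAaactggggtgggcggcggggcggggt
These are matches of letters, not sites shown to be bound. In *FBXO5* a CCAAT and its reverse complement overlap.

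At 24 h, *SKP2* was upregulated by Arg. Its level was 270, 297, and 274 CPM in control replicates A, B, and C and 409, 389, and 361 CPM in Arg replicates A, B, and C. The lowest Arg value exceeded the highest control value. The mean rose from 280 ± 14.5 to 386 ± 24.1 CPM (SD, n = 3), a 1.38-fold difference with a 95% interval of 1.23 to 1.54. The log2 fold change was 0.46 (SE 0.078, edgeR adjusted p = 0.00164). By p-value, *SKP2* ranked 32 among the genes that were higher with Arg. Of all 14279 genes tested at 24 h, 2.79% were called higher and 3.84% lower at an adjusted p under 0.05. More cells in a cycle phase that expresses the gene and more RNA per cell cannot be told apart in these data.

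*CCNF* was the other member called at 24 h. It measured 98.3, 95.5, and 79.6 CPM in the controls and 116, 117, and 119 CPM with Arg, so that the groups did not overlap. The log2 fold change was 0.36 (SE 0.090, edgeR adjusted p = 0.0209), or 1.29-fold with an interval of 1.13 to 1.47. This call was lost when single libraries were left out, with an adjusted p of 0.141 without control replicate C, 0.0833 without Arg replicate B, and 0.0962 without Arg replicate C. *SKP2* kept its call without any single library, with a largest adjusted p of 0.0188.

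The remaining 8 members were not called at 24 h. *FBXO5* was the nearest, with 51.5 ± 3.91 CPM in the controls and 59.7 ± 5.11 CPM with Arg (SD, n = 3), a log2 fold change of 0.21 (unadjusted p = 0.0384, edgeR adjusted p = 0.190), and groups that overlapped. In the core of the ligase, *SKP1* measured 277 to 279 CPM without and 246 to 292 CPM with Arg, *CUL1* 93.6 to 109 and 94.2 to 105 CPM, and *RBX1* 48.2 to 56.0 and 40.6 to 53.2 CPM. The log2 fold changes of these core genes were −0.07, −0.04, and −0.16, with 95% intervals of −0.23 to 0.10, −0.22 to 0.14, and −0.39 to 0.06. The intervals thus allow for a change in either direction. The cofactor *CKS1B* had a log2 fold change of 0.11 (−0.05 to 0.28) and its paralogue *CKS2* of −0.16 (−0.36 to 0.04). *FBXW7* and *BTRC*, at 24.2 and 26.1 CPM in the controls, had log2 fold changes of 0.11 and 0.07.

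Counted together, 2 of the 10 members were called higher and 0 lower at 24 h. By edgeR's unadjusted p under 0.05, 3 of 10 passed, against 22.8% of all genes, and 2 of 10 did not overlap between the groups, against 26.2% of all genes. The median log2 fold change of the members was 0.09, against 0.0030 for all genes. The plot of members by library shows these levels.

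**Figure D1:**
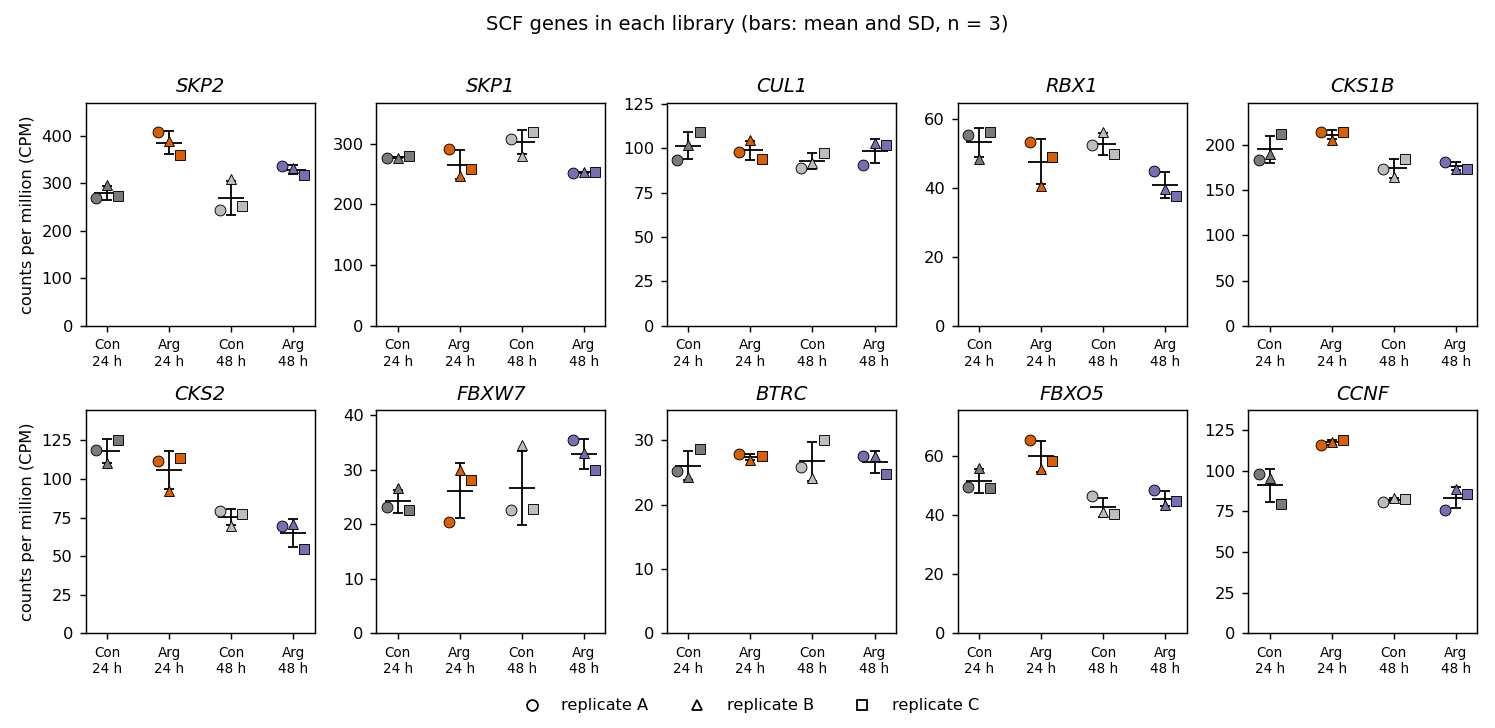
Level of each SCF gene in the 12 libraries in CPM (y axis, starting at 0), by group (x axis). Symbols mark replicates A, B, and C, and the bars give the mean and SD of 3 libraries. *SKP2* and *CCNF* at 24 h are the members whose Arg points all lie above the control points, and *SKP2* in control replicate B at 48 h (310 CPM) lies near the Arg points.

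At 48 h, no member was called, although *SKP2* was again higher with Arg in every library. It measured 244, 310, and 252 CPM in control replicates A, B, and C and 337, 333, and 318 CPM in Arg replicates A, B, and C. Control replicate B, the library that stood apart, was the control nearest to Arg. The means were 269 ± 35.9 and 329 ± 10 CPM (SD, n = 3), and the log2 fold change was 0.29 (SE 0.085, unadjusted p = 0.00515, edgeR adjusted p = 0.201). Without control replicate B it was 0.41 (edgeR adjusted p = 2.57e-05).

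A pair of core genes was lower with Arg at 48 h, in the main edgeR fit at an unadjusted level only. *SKP1* measured 308, 280, and 319 CPM in the controls and 252, 253, and 253 CPM with Arg, and all 3 Arg libraries lay below all 3 controls. Its log2 fold change was −0.26 (SE 0.064, unadjusted p = 0.00133, edgeR adjusted p = 0.148). *RBX1* measured 52.3, 56.1, and 49.8 CPM in the controls and 45.0, 39.6, and 37.7 CPM with Arg, again without overlap, with a log2 fold change of −0.37 (SE 0.091, unadjusted p = 0.00140, edgeR adjusted p = 0.148). DESeq2 called both, with adjusted p-values of 0.0314 and 0.0377, and 1.37% of all genes. Without control replicate B the log2 fold changes were −0.31 for *SKP1* (edgeR adjusted p = 0.000293) and −0.32 for *RBX1* (edgeR adjusted p = 0.0121). *CUL1*, the third core gene, had a log2 fold change of 0.08 (95% interval −0.07 to 0.24), and 0.08 without that control.

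The other members were further from the threshold at 48 h. *FBXW7* measured 22.7, 34.5, and 22.9 CPM in the controls and 35.6, 33.2, and 29.9 CPM with Arg, so that control replicate B lay among the Arg libraries. Its log2 fold change was 0.30 (edgeR adjusted p = 0.411), and 0.53 without that control (edgeR adjusted p = 0.000858). *CKS2* had a log2 fold change of −0.21 (edgeR adjusted p = 0.380), −0.27 without that control (edgeR adjusted p = 0.0399), −0.10 without Arg replicate C (edgeR adjusted p = 0.742), and −0.13 with a correction for transcript length (edgeR adjusted p = 0.570). *CKS1B*, *BTRC*, *FBXO5*, and *CCNF* had log2 fold changes of 0.016, −0.0075, 0.09, and 0.020, all with overlapping groups, and −0.022, −0.07, 0.07, and 0.029 without control replicate B.

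At 48 h, 0% of 14562 genes were called higher and 0.117% lower by edgeR, so the absence of calls among the members was that of nearly all genes. At an unadjusted p under 0.05, 3 of 10 members passed, against 13.4% of all genes. The groups did not overlap in 3 of 10 members, against 17.1% of all genes. Without control replicate B, edgeR called 5 of 10 members, *SKP2* and *FBXW7* higher and *SKP1*, *RBX1*, and *CKS2* lower, and 15.9% of all genes.

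**Figure D2:**
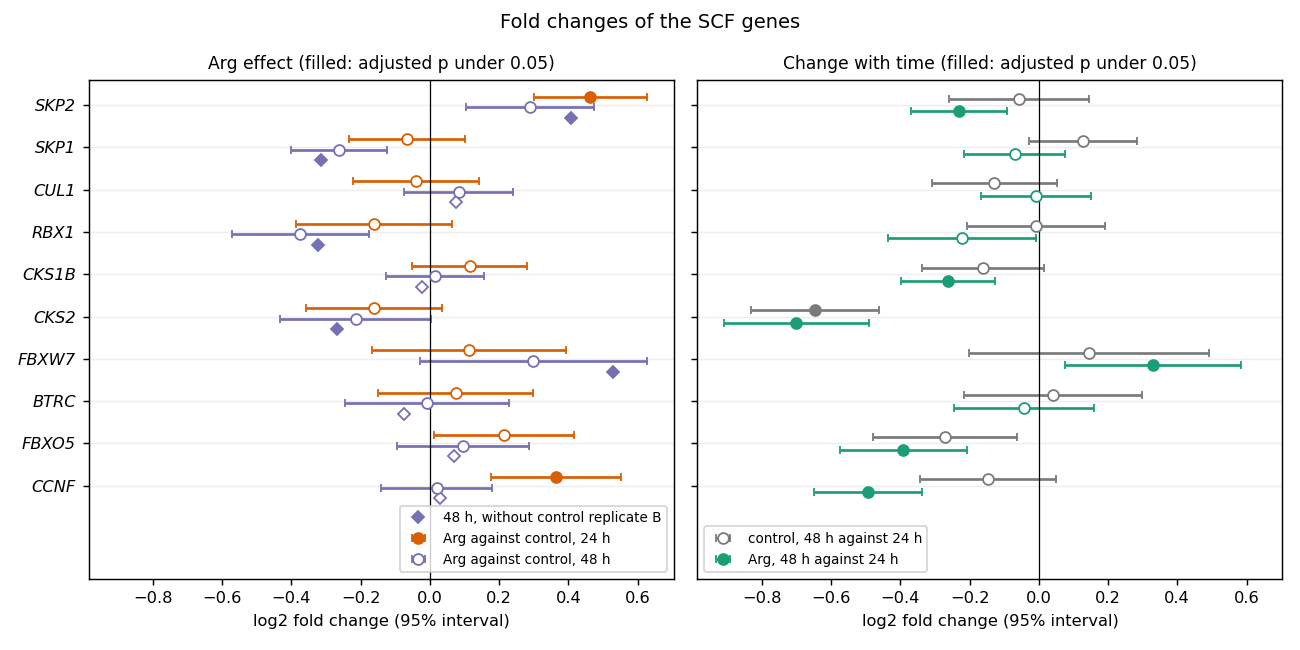
Log2 fold changes (x axis) of the 10 SCF genes (y axis) with 95% intervals from edgeR, for Arg against control (left) and 48 h against 24 h (right). Filled symbols have an adjusted p under 0.05, and diamonds, which carry no interval, give the 48 h values without control replicate B. *SKP2* has the largest Arg effect at 24 h, at 0.46, and *CKS2* the largest fall with time, at −0.65 in control and −0.70 in Arg.

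The Arg effect at 48 h minus that at 24 h was tested directly in a model of all 12 libraries. None of the 10 members was called, by edgeR or DESeq2, against 0.0132% of 15148 genes called higher and 0% lower by edgeR. The count was also 0 by edgeR without control replicate B. The difference was largest for *CCNF*, at −0.34 (SE 0.119, unadjusted p = 0.00903, edgeR adjusted p = 0.606), and it was −0.34 without that control (edgeR adjusted p = 0.339). *CCNF* was the only member under an unadjusted p of 0.05, a level passed by 6.87% of all genes. For *SKP2* the difference was −0.17 (95% interval −0.42 to 0.07, edgeR adjusted p = 0.829), and −0.06 without control replicate B. A smaller *SKP2* effect at 48 h than at 24 h was thus not shown.

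Between 24 and 48 h, *CKS2* fell in both treatments. It measured 119, 110, and 126 CPM in the controls at 24 h and 79.2, 69.5, and 77.4 CPM at 48 h. With Arg it measured 112, 92.0, and 114 CPM at 24 h and 69.6, 70.9, and 54.6 CPM at 48 h. In neither treatment did the times overlap. The log2 fold change was −0.65 (SE 0.085, edgeR adjusted p = 0.00159) in control, −0.59 (edgeR adjusted p = 0.000743) there without replicate B at 48 h, and −0.70 (SE 0.0999, edgeR adjusted p = 3.37e-05) with Arg.

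In control cells, *CKS2* was the only member called between the times. *FBXO5* followed with 51.5 ± 3.91 CPM at 24 h and 42.5 ± 3.24 CPM at 48 h (SD, n = 3), a log2 fold change of −0.27 (unadjusted p = 0.0146, edgeR adjusted p = 0.0640). It was called with the 12 libraries in a single model (edgeR adjusted p = 0.0351), and was at −0.25 (edgeR adjusted p = 0.110) without control replicate B at 48 h. *SKP2* differed by −0.06 on the log2 scale (95% interval −0.26 to 0.15), or by −0.17 (edgeR adjusted p = 0.123) without control replicate B. In all, 0 members rose and 1 fell, against 9.90% of 14449 genes higher and 10% lower. At an unadjusted p under 0.05, 2 of 10 passed, against 34.1% of all genes, and 3 of 10 did not overlap, against 39.0%.

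With Arg, 5 members fell between 24 and 48 h and 1 rose. Beside *CKS2*, *CCNF* fell from 117 ± 1.73 to 83.5 ± 6.66 CPM (SD, n = 3), a log2 fold change of −0.49 (edgeR adjusted p = 6.53e-05). *FBXO5* fell from 59.7 ± 5.11 to 45.5 ± 2.63 CPM, with a log2 fold change of −0.39 (edgeR adjusted p = 0.00223). *CKS1B* fell from 212 ± 4.82 to 176 ± 4.42 CPM, with a log2 fold change of −0.26 (edgeR adjusted p = 0.00516). With *CKS2*, these are the 4 genes whose windows held TTTGAA and several CCAAT, a combination picked after the matches and these values were seen. In control, *CCNF*, *FBXO5*, and *CKS1B* changed in the same direction, by −0.15, −0.27, and −0.16 (edgeR adjusted p = 0.279, 0.0640, and 0.181). The change with time in Arg minus that in control is the same contrast as the difference of Arg effects, in which no member was called. A fall particular to Arg was thus not shown. Genes of other lists also changed in the same comparison. Of 16 proliferation markers, 9 fell and 2 rose, with a median of −0.18. Of 18 genes of the anaphase complex and its activators, 6 fell and 0 rose, and of 10 COP9 genes 5 fell and 0 rose. Among 10 genes for SKP2 substrates, 4 rose and 1 fell, and among 56 tested F-box genes that are not members 6 rose and 3 fell. Genes for FBXW7 and for BTRC substrates rose and fell in equal number. The part of these lists in the fall of the members was not tested.

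*SKP2*, whose window held neither motif, also fell with time in Arg, from 386 ± 24.1 to 329 ± 10 CPM, with a log2 fold change of −0.23 (SE 0.066, edgeR adjusted p = 0.0133). That call was lost without Arg replicate B at 48 h (edgeR adjusted p = 0.0598), without Arg replicate C at 48 h (edgeR adjusted p = 0.0656), and with library size as the only scaling (edgeR adjusted p = 0.0586). *FBXW7* rose from 26.2 ± 5.01 to 32.9 ± 2.82 CPM, with a log2 fold change of 0.33 (SE 0.122, edgeR adjusted p = 0.0491). It was not called by DESeq2 (adjusted p = 0.0546), nor by edgeR without Arg replicate A at 24 h (adjusted p = 0.219), Arg replicate A at 48 h (adjusted p = 0.188), or Arg replicate B at 48 h (adjusted p = 0.107). Of 14398 genes tested, 14.3% rose and 14% fell. The unadjusted p was under 0.05 in 7 of 10 members and in 38.5% of all genes, and the times did not overlap in 6 of 10 members and in 42.2% of all genes.

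Median fold changes moved with transcript length in this comparison. With Arg, the median log2 change from 24 to 48 h was −0.11 over 1075 genes with a canonical transcript of 500 to 1000 bases and 0.08 over 5231 genes with one over 4000 bases. The canonical transcripts of *CKS2* and *CKS1B* are 616 and 779 bases long and that of *SKP1* 9386 bases. With a correction for this length, added after the data were seen, *CKS2*, *CCNF*, *FBXO5*, *CKS1B*, and *SKP2* were still called lower, *SKP1* was also called lower (log2 fold change −0.23, edgeR adjusted p = 0.0197), and *FBXW7* was not called (edgeR adjusted p = 0.127). With the replicate block added to that correction, *CKS1B* was not called (edgeR adjusted p = 0.0777).

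Per kilobase of exonic length, *SKP2* stood first among F-box genes in these cells. Its mean over 12 libraries was 82.3 CPM per kb, followed by *FBXW5* with 25.1 CPM per kb. Among the members, *CKS2* and *CKS1B* had levels of 149 and 81.0 CPM per kb on the same scale, *CUL1* 27.6, *SKP1* 21.5, *RBX1* 15.7, *CCNF* 14.8, *FBXO5* 13.0, *BTRC* 4.04, and *FBXW7* 2.48. The exonic length joins all transcripts of a gene, and for *CKS1B* it is 2338 bases against 779 for the canonical transcript. With canonical lengths, *CKS1B* came first with 243 CPM per kb, before *CKS2* with 148 and *SKP2* with 85.0. The order of *SKP2* and *CKS1B*, which lie close together on the exonic scale, therefore depends on the length used. Levels per canonical length were computed for the members only, so the rank of *SKP2* among all F-box genes was not checked with them.

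Among 70 F-box genes, the share of the summed signal per length that was *SKP2* was higher with Arg. At 24 h it was 16.4%, 17.5%, and 17.1% in the controls and 23.4%, 22.6%, and 21.1% with Arg. At 48 h it was 15.2%, 19.4%, and 15.8% in the controls and 20.2%, 20.2%, and 19.3% with Arg, so that control replicate B lay within the Arg range. The difference over both times was 4.23 percentage points (two-sided exact permutation test within time, p = 0.01 over 400 arrangements, adjusted p = 0.03 over the 3 tests made). At 24 h alone it was 5.35 points (exact p = 0.1, the smallest that 20 arrangements allow) and at 48 h alone 3.10 points (exact p = 0.2). Without control replicate B it was 4.4 points at 48 h (exact p = 0.1, the smallest that 10 arrangements allow). Over both times it was then 4.88 points (exact p = 0.005, also the smallest possible). Leaving out the control at 48 h that lay within the Arg range separates the groups by construction, so these p-values are a description. Since *SKP2* counts enter this share, it is not independent of the *SKP2* level.

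**Figure D3:**
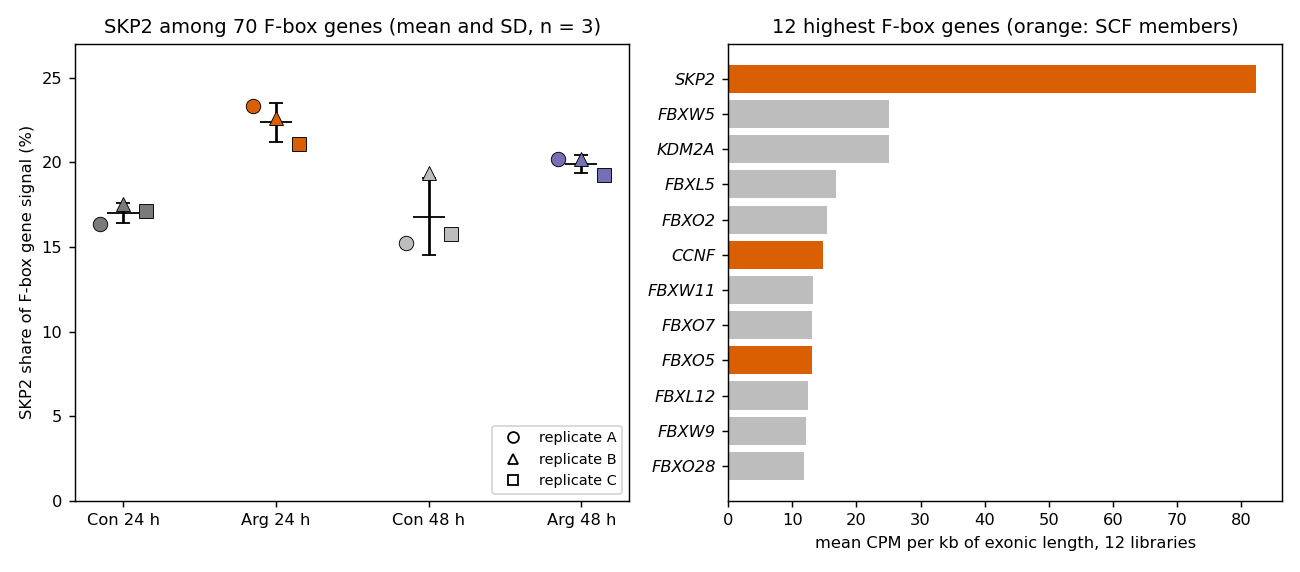
Left, share of the per-length signal of 70 F-box genes that is *SKP2* (y axis, %), by group, with mean and SD of 3 libraries. Right, the 12 F-box genes with the highest mean level (x axis, CPM per kb of exonic length, 12 libraries), with SCF members in orange. *SKP2* is at 82.3 CPM per kb and *FBXW5* at 25.1, and control replicate B at 48 h is at 19.4%, beside the Arg libraries.

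Of the 65 F-box genes that are not members, 55 were tested at 24 h, and 1 rose and 4 fell, against 2.79% and 3.84% of all genes. *FBXO32*, which encodes the muscle ligase subunit atrogin-1, rose from 4.96 to 9.90 CPM, with a log2 fold change of 0.99 (edgeR adjusted p = 0.00311). *FBXO27*, *FBXL4*, and *FBXO2* fell, with log2 fold changes of −0.54, −0.45, and −0.45, as did *FBXO7*, named after its values were seen, with −0.34. The median of the 55 was −0.05. At 48 h, 0 of 56 were called by edgeR, with 5 at an unadjusted p under 0.05, against 13.4% of all genes. Without control replicate B 4 rose and 2 fell, against 15.9% of all genes called in either direction.

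Of 10 genes that encode SKP2 substrates, 0 were called higher and 1 lower at 24 h, against 2.79% and 3.84% of all genes. At an unadjusted p under 0.05, 5 of 10 passed, 2 higher and 3 lower, against 22.8% of all genes. The one called lower was *CDKN1C*, which encodes the CDK inhibitor p57. It measured 103, 108, and 98.5 CPM in the controls and 29.7, 33.0, and 41.8 CPM with Arg, a log2 fold change of −1.57 (SE 0.111, edgeR adjusted p = 1.39e-07). At 48 h it measured 194, 49.2, and 161 CPM in control replicates A, B, and C and 50.7, 51.9, and 45.5 CPM with Arg (log2 fold change −1.45, edgeR adjusted p = 0.145), and control replicate B again lay within the Arg range. Without that control the log2 fold change of *CDKN1C* was −1.85 (edgeR adjusted p = 1.60e-13). Then 2 of the 10 genes were called lower, against 15.9% of all genes called in either direction. With all libraries at 48 h, 0 of 10 were called by edgeR. An unadjusted p under 0.05 was found in 3, all lower, against 13.4% of all genes. *CDKN1B*, named here after its values were seen because p27 is the best known SKP2 substrate, measured 48.1 CPM in the controls and 59.4 CPM with Arg at 24 h (log2 fold change 0.30, edgeR adjusted p = 0.0702). SKP2 acts on the proteins, which these data do not measure.

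Genes for substrates of the other ligases are given beside the shares of all genes at 24 h. These were 2.79% called higher, 3.84% called lower, and 22.8% with an unadjusted p under 0.05. Of 10 tested genes for FBXW7 substrates, 0 rose and 1 fell at 24 h, namely *JUN*, from 63.2 to 45.3 CPM (log2 fold change −0.48, edgeR adjusted p = 0.00555), and 3 had an unadjusted p under 0.05, all lower. Of 14 genes for BTRC substrates, *BORA*, an activator of Aurora A, rose from 17.3 to 23.5 CPM (log2 fold change 0.44, edgeR adjusted p = 0.0252), and *NFKBIA* fell from 80.4 to 62.4 CPM (log2 fold change −0.37, edgeR adjusted p = 0.0250). Neither was called without control replicate A, control replicate C, or Arg replicate B. Of all genes, 2.45%, 2.98%, and 2.74% were called in either direction without those libraries. Of 7 genes for cyclin F substrates, 0 were called by edgeR and 1 had an unadjusted p under 0.05, *FZR1*, with a log2 fold change of 0.31 (edgeR adjusted p = 0.0758). The medians of these lists at 24 h were 0.027, 0.07, and 0.10, against 0.0030 for all genes. At 48 h they were −0.18, 0.018, and −0.08, against 0.0018. By edgeR, 0 genes were called there, and 3, 2, and 1 had an unadjusted p under 0.05, against 13.4% of all genes. With control replicate B left out, 1 rose and 2 fell among the FBXW7 substrates and 1 rose and 2 fell among those of BTRC. Among those of cyclin F, 2 fell, while 15.9% of all genes were called in either direction.

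Genes for the enzymes that switch cullins on and off showed mostly small values below 0. At 24 h, 2.79% of all genes were called higher, 3.84% lower, and 22.8% had an unadjusted p under 0.05. Of 16 genes of neddylation and cullin exchange, 0 rose and 1 fell at 24 h, and 2 of 16 had log2 fold changes above 0, with a median of −0.15. The gene that fell was *UBE2F*, a NEDD8-conjugating enzyme, from 15.3 to 8.83 CPM (log2 fold change −0.79, edgeR adjusted p = 0.00695). The count was 0 without control replicate A and 4 without control replicate B. Of all genes, 2.45% and 10.4% were called in either direction without those libraries. Of 10 ubiquitin-conjugating and partner enzymes of SCF, 0 were called by edgeR, 2 had an unadjusted p under 0.05, and none was above 0, with a median of −0.14. The lowest p there was that of *UBE2R2*, a CDC34 enzyme, with a log2 fold change of −0.25 (edgeR adjusted p = 0.0726). DESeq2 called 1 of the 10 and 8.13% of all genes. In the COP9 signalosome, which removes NEDD8, 0 of 10 genes were called by edgeR and 0 had an unadjusted p under 0.05, with *COPS9* at −0.20 (edgeR adjusted p = 0.232). Among 7 other cullins the counts were also 0 and 0, with *CUL5* at 0.08 (edgeR adjusted p = 0.614). At 48 h none of these 4 lists had a gene called by edgeR. An unadjusted p under 0.05 was found in 3, 0, 1, and 0 genes, against 13.4% of all genes. Without control replicate B, 5 genes of neddylation and cullin exchange and 2 COP9 genes were called lower, 1 other cullin higher, and 0 of the conjugating and partner enzymes. Of all genes, 15.9% were called in either direction without that control.

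Some genes of cell division were also upregulated at 24 h, when 2.79% of all genes were called higher and 3.84% lower. Of 18 genes of the anaphase complex and its activators, 2 rose and 0 fell, namely *ANAPC2*, a subunit, and *UBE2C*, its ubiquitin-conjugating enzyme, with log2 fold changes of 0.43 and 0.33 (edgeR adjusted p = 0.0111 and 0.0237). That count was 0 without control replicate C, Arg replicate B, or Arg replicate C. Of 16 proliferation markers, 3 rose and 0 fell, and 14 had log2 fold changes above 0, with a median of 0.19. Those were *MKI67* (188 to 272 CPM), *TOP2A* (487 to 629 CPM), and *BUB1* (116 to 143 CPM), with log2 fold changes of 0.53, 0.37, and 0.29. The count of 3 was 0 without control replicate A or C, 1 without Arg replicate B, and 7 without control replicate B. The summed level of the 16 markers was 4394 to 4846 CPM in control and 5118 to 5201 CPM with Arg at 24 h, and 4711 to 4876 and 4662 to 5009 CPM at 48 h. Its part in the *SKP2* and *CCNF* differences was not tested. At 48 h, 0 of these 16 and 0 of the 18 were called by edgeR. An unadjusted p under 0.05 was found in 1 and 5 of them, against 13.4% of all genes. When control replicate B was left out, 1 marker rose and 2 fell, and 2 anaphase genes rose and 4 fell. The share of all genes called in either direction was then 15.9%.

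**Figure D4:**
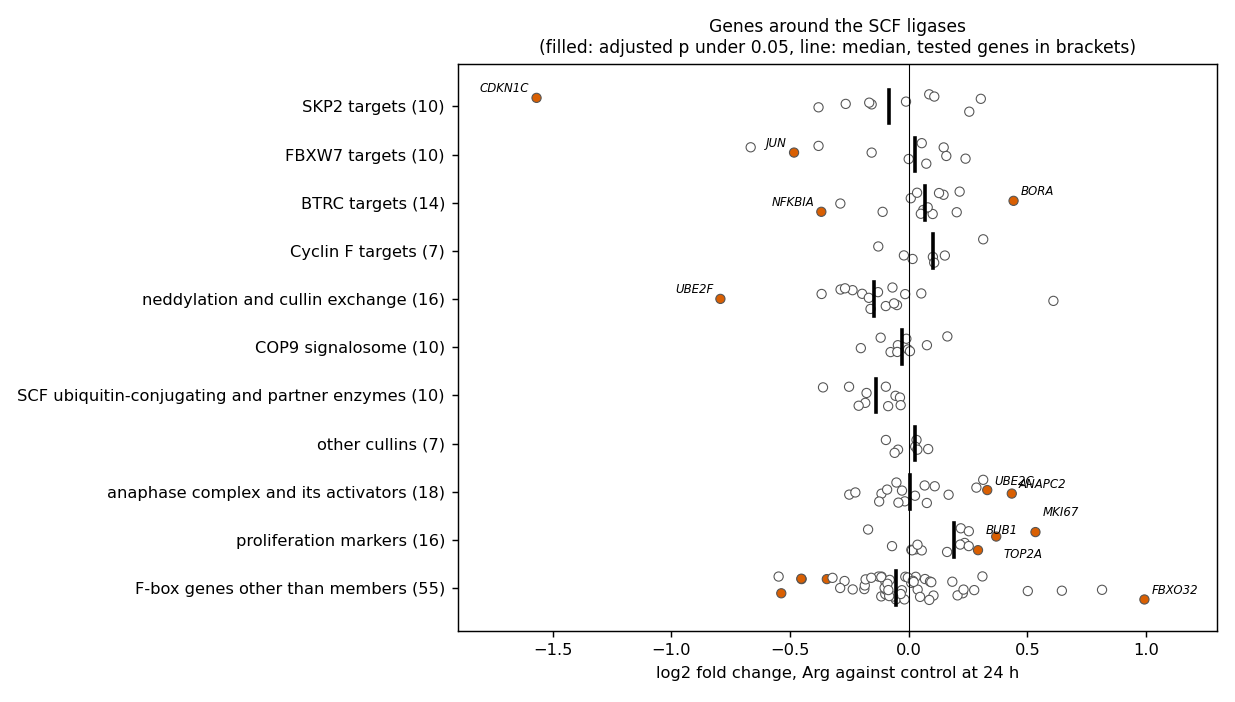
Log2 fold change at 24 h, Arg against control (x axis), of the tested genes in each list around the SCF ligases (y axis, number tested in brackets). Points are genes, filled where the adjusted p is under 0.05, and black lines are medians. *CDKN1C*, at −1.57, lies farthest from 0, and *FBXO32*, at 0.99, is the highest called gene.

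The 5 genes most like *SKP2* library by library were not members. Likeness was measured as the root mean square difference between a gene's log2 CPM and that of *SKP2*, each minus its own mean, over 12 libraries and 15147 genes. The most alike were *TBCEL*, *TRIM59*, *LBR*, *C6orf62*, and *CDCA2*, with values of 0.0880, 0.0914, 0.0925, 0.0932, and 0.0956, against a median of 0.336 for all genes. A gene with the same level in every library would have a value of 0.228, the SD of *SKP2* itself. Among the members, *CCNF* (0.182, rank 572), *FBXO5* (0.188, rank 715), and *CKS1B* (0.205, rank 1191) lay below that value. *CUL1* lay at it (0.228), and *BTRC*, *FBXW7*, *SKP1*, *RBX1*, and *CKS2* lay above it, between 0.242 and 0.428, so the likeness of these 6 was about that of a gene that does not vary or less. *CDCA2*, which encodes a chromatin protein of dividing cells, measured 38.3 to 40.6 CPM in the controls and 54.7 to 56.9 CPM with Arg at 24 h. The measure is a description, since it uses the same libraries as the comparisons.

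**Figure D5:**
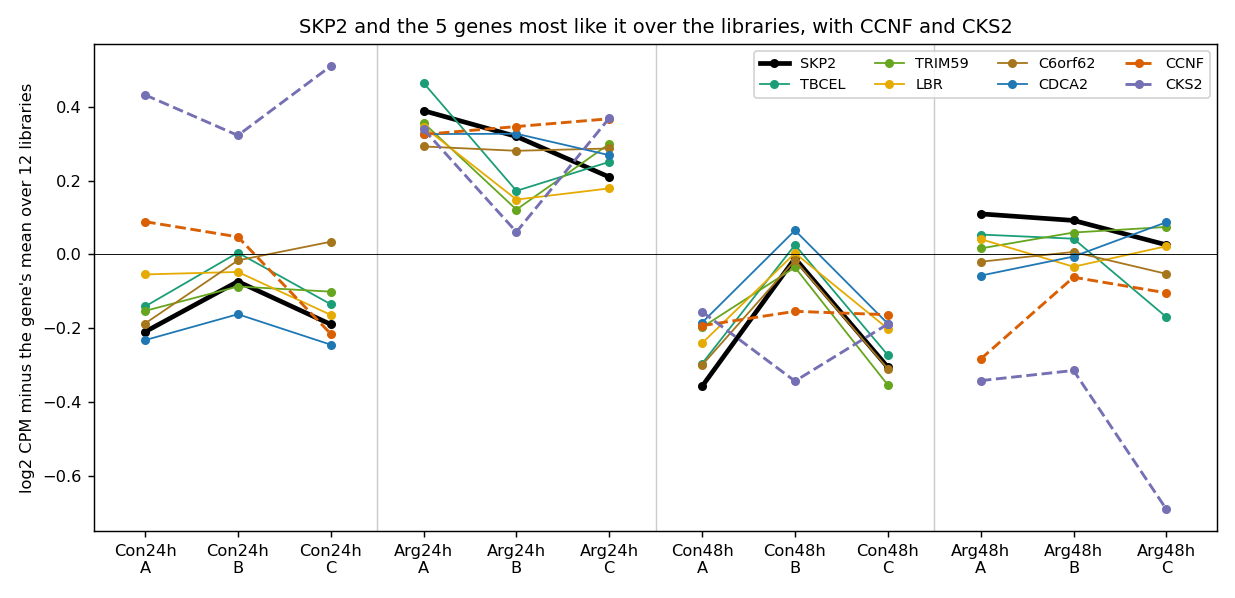
Log2 CPM minus each gene's mean over the 12 libraries (y axis) for *SKP2*, the 5 genes most like it, *CCNF*, and *CKS2*, in each library (x axis). Lines join the points of a gene within a group and imply no order of replicates. *SKP2* and the 5 genes are high with Arg at 24 h and higher in control replicate B than in replicates A and C at 48 h, while *CKS2* falls from 24 to 48 h.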

How the data were processed

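RNA of TIGK cells was sequenced in 12 libraries, 3 in each of 4 groups. The gene counts were deposited by the authors as raw integers, made with fastp, STAR, and featureCounts on GRCh38 per the labels, without normalization. The annotation release, strand setting, and tool versions are not given in the sources used here. The gene lengths, also from the count table, were used only for levels per kilobase. Groups were taken from the labels.

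Each comparison was fitted across all genes with edgeR 4.0.16 in R 4.3.3 (TMM, filterByExpr, quasi-likelihood test, no block), with Benjamini–Hochberg adjustment over all tested genes. CPM values use TMM library sizes, and log2 CPM a prior count of 2. The scripts were tested on simulated data. The alternatives were DESeq2 1.42.0, other normalizations, filters and models, the replicate block, a length correction, and leaving out each library. The members and lists were chosen with earlier results of these data known. From each list, at most 4 genes called at 24 h and 2 at 48 h with the largest change were named, or else the gene with the smallest p at 24 h, and the 5 genes most like *SKP2*. With 3 libraries against 3, an exact permutation test cannot give a p below 0.1.
The sequences before start sites came from RefSeq (GRCh38.p14), and all 12 motifs that were searched are reported, those without a match included.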

Additional observations from a re-analysis of the deposited data

How the results depend on the processing

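The *SKP2* call at 24 h was kept under every alternative tried, with log2 fold changes of 0.42 to 0.51. The count of 2 members at 24 h fell to 1 without control replicate C, Arg replicate B, or Arg replicate C, a range of 1 to 2, where *CCNF* was lost. At 48 h the count of 0 became 3 at an unadjusted p under 0.05, against 13.4% of all genes. It became 3 when low counts were not filtered (2.10% of all genes called) and 2 with DESeq2 (1.37%). With the length correction and the replicate block together it was 1 (1.09%). It ranged from 0 to 5 over libraries left out, with 5 without control replicate B (15.9%). In the main fit, 0% of all genes were called higher and 0.117% lower. The cause of these changes in count was not tested. The count for the difference of Arg effects became 1 at an unadjusted p under 0.05, against 6.87% of all genes. In control over time, the count of 1 became 2 at an unadjusted p under 0.05, against 34.1% of all genes. It was also 2 with all 12 libraries in a single model (24.4% of all genes called) and 2 with the replicate block (28.0%). The letters A to C were not shown to pair the libraries. Correlations of same-letter deviations lay between −0.0615 and 0.135, with the highest for replicate B in control over time. With the replicate block the counts were 2 and 0 for Arg against control at 24 and 48 h. They were 0 for the difference and 5 for Arg over time. Of all genes, 6.47%, 1.26%, 0.0132%, and 26.2% were called in these fits. The *SKP2* share differed by 4.23 points with the letters paired (exact p = 0.0312, the smallest that 64 arrangements allow, 6 of 6 pairs higher). Since the letters were not shown to pair the libraries, that value is a description. The share passed under each alternative. The smallest difference, 2.98 points, was in the share of counts not divided by length. The largest, 6.47 points, was in the share among FBXL genes and *SKP2* only. Both are other measures than the main share, so they do not give its spread.

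Values that changed sign were all small and had not passed the test. With library size only, *SKP2* (0.0023) and *RBX1* (0.053) in control over time and *CUL1* (0.050) and *BTRC* (0.015) in Arg over time became positive. With the length correction, without and with the replicate block, the difference of Arg effects for *CKS2* was 0.026 and 0.029, and in control over time *RBX1* was 0.047 and 0.045 and *BTRC* −0.030 and −0.033. Over libraries left out, the ranges that crossed 0 were −0.096 to 0.011 for *CUL1* at 24 h. At 48 h they were −0.022 to 0.060 for *CKS1B*, −0.073 to 0.085 for *BTRC*, and −0.023 to 0.081 for *CCNF*. For the difference of Arg effects they were −0.143 to 0.059 for *CKS2* and −0.153 to 0.013 for *BTRC*. In control over time they were −0.173 to 0.0076 for *SKP2*, −0.079 to 0.030 for *RBX1*, −0.055 to 0.108 for *BTRC*, and −0.085 to 0.248 for *FBXW7*. In Arg over time they were −0.121 to 0.00015 for *SKP1*, −0.042 to 0.046 for *CUL1*, and −0.073 to 0.010 for *BTRC*.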
